A study of Mus musculus with 6 samples.

Results

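The genes of Wnt signalling outside the cell and at its surface were compared between neonatal and adult mouse testis. The set holds the Wnt ligands, the Frizzled receptors, the co-receptors Lrp5 and Lrp6, the secreted antagonists of the Sfrp and Dkk families and Wif1, the Dkk relative Dkkl1, the R-spondins Rspo1 to Rspo3, and Axin2, Lef1 and Tcf7. Members were taken by gene symbol, after each mRNA probe had been named through its RefSeq accession. This gave 48 probes of 47 genes out of 22464 mRNA probes of 19053 named genes, and Fzd5 was the gene with more than 1 probe.

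RNA came from whole testes of C57/BL6 males, 6 days old in the neonatal group and 8 weeks old in the adult group. Animals of each age were divided by the authors into 3 groups, each of which gave 1 biological replicate and 1 single-colour array, so a value describes a pool of animals. Both ages were sampled without treatment. Array brightness, read as the 75th percentile of background-subtracted signal, ran from 1396 to 2956 in neonatal and from 745 to 1853 in adult samples, replicate 3 being the dimmest at each age.

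Wnt proteins are secreted lipid-modified ligands that bind Frizzled receptors together with Lrp5 or Lrp6, which stabilizes beta-catenin and lets it act with TCF and LEF proteins on target genes such as Axin2. Sfrp proteins and Wif1 bind Wnt ligands outside the cell, Dkk proteins block the Lrp co-receptors, and R-spondins raise the response by keeping Frizzled receptors at the surface. In the gonad, Wnt4 and Rspo1 are known for their part in ovary formation, and in the postnatal testis Wnt6 from Sertoli cells is known to act on spermatogonia.

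Values in this report are normalized log2 signal, the log2 of a signal over the 75th percentile of its array, and nothing was let fall under a floor of -7.22. A difference is adult minus neonatal on that scale, from a limma model in which replicate number formed the block, and its adjusted p is by Benjamini-Hochberg over all lncRNA and mRNA probes tested. A probe was called where the fold change was at least 5 and the adjusted p at most 0.05. Spots that the scanner software marked as outliers were left out, and testing required 2 pairs with both spots unmarked. If no array of an age was well above background for a probe, the true fold could be larger than the measured one, and the text gives "at least" a certain fold, provided that every array of the other age was well above background. For this bound every dim array was credited with the faintest signal that counted as well above background there, or with the signal of the probe if that was larger, and the mean of the other age was compared with the mean of these. If only some arrays of an age were that dim, a difference is printed, but its size leans on values that could not be measured. The bounds rest on the background subtraction used here and can fail under another one. Some spots brighter than the faintest such signal of their array were not well above background, as for Wnt9a in adult testis. The limit of a probe can therefore lie higher, and its bound can be smaller than the one given.

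Most of the members that could be measured were brighter in neonatal testis. Of the 29 member probes tested, 13 were called lower in adult testis and 3 higher, while among all 15119 mRNA probes tested 13.6% were called lower and 12.6% higher. The members called lower made up 44.8% of those tested and the members called higher 10.3%. The probes called lower were those of Wnt2b, Fzd2, Fzd3, Fzd5 (both probes), Lrp6, Sfrp1, Sfrp4, Sfrp5, Dkk2, Rspo2, Rspo3 and Axin2. Those called higher were of Dkkl1, Lef1 and Wnt3a. When 2-fold sufficed, 18 members were lower and 3 higher, beside 36.3% and 23.4% of all mRNA probes. The median difference was -2.02 over the members tested and -0.39 over all mRNA probes tested. These medians moved to -0.32 and 0.02 with the normexp background correction, and to -0.64 and 0.00 with no filter on dim probes. After normexp 7 members were called lower and 1 higher, beside 1036 and 1502 of 15119 mRNA probes. Without replicate 1 fewer probes were tested, and 6 of 22 members and 971 of 8229 mRNA probes were called lower. Members that passed the filter on dim probes at 1 age alone were bound to differ, so these counts describe the set and do not test it.

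Signal well above background was seen for 40 of the 48 member probes, and for 24 of them in all 6 samples. The 8 that were not well above background on any array were those of Wnt2, Wnt7a, Wnt8a, Wnt8b, Wnt9b, Wnt10b, Wnt16 and Dkk1. On the neonatal arrays 37, 36 and 37 members were well above background, and on the adult arrays 30, 27 and 28. Of the 40, 11 had too few unmarked spots to be tested, and 10 of these had the spot marked as an outlier on all 3 neonatal arrays. The 11 were Wnt5a, Wnt6, Wnt9a, Fzd1, Fzd6, Fzd7, Lrp5, Sfrp2, Dkk3, Wif1 and Tcf7, and their values are given with the marked spots kept. Probes marked on all 3 neonatal arrays made up 20.8% of member probes, beside 7.95% of all mRNA probes. Among probes well above background on some array, 27.5% of members and 21.7% of mRNA probes were left untested.

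With the marked spots kept for every probe, 40 members were tested, of which 21 were called lower in adult testis and 3 higher. Among the 19310 mRNA probes of that fit, 15.2% were called lower and 12.8% higher. At a fold change of at least 2 the members counted 27 lower and 3 higher, beside 38.7% and 23.1% of all mRNA probes. The 15 genes called with the marked spots left out were all called again, and Wnt5a, Wnt6, Wnt9a, Fzd7, Sfrp2, Dkk3, Wif1 and Tcf7 joined them, each lower in adult testis. In that fit the neonatal and adult ranges did not overlap for 33 of the 40 members. Of these, 28 were lower in adult testis and 5 higher. This count was not compared with other probes, so it does not show that the members stand apart from them.

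**Figure D1:**
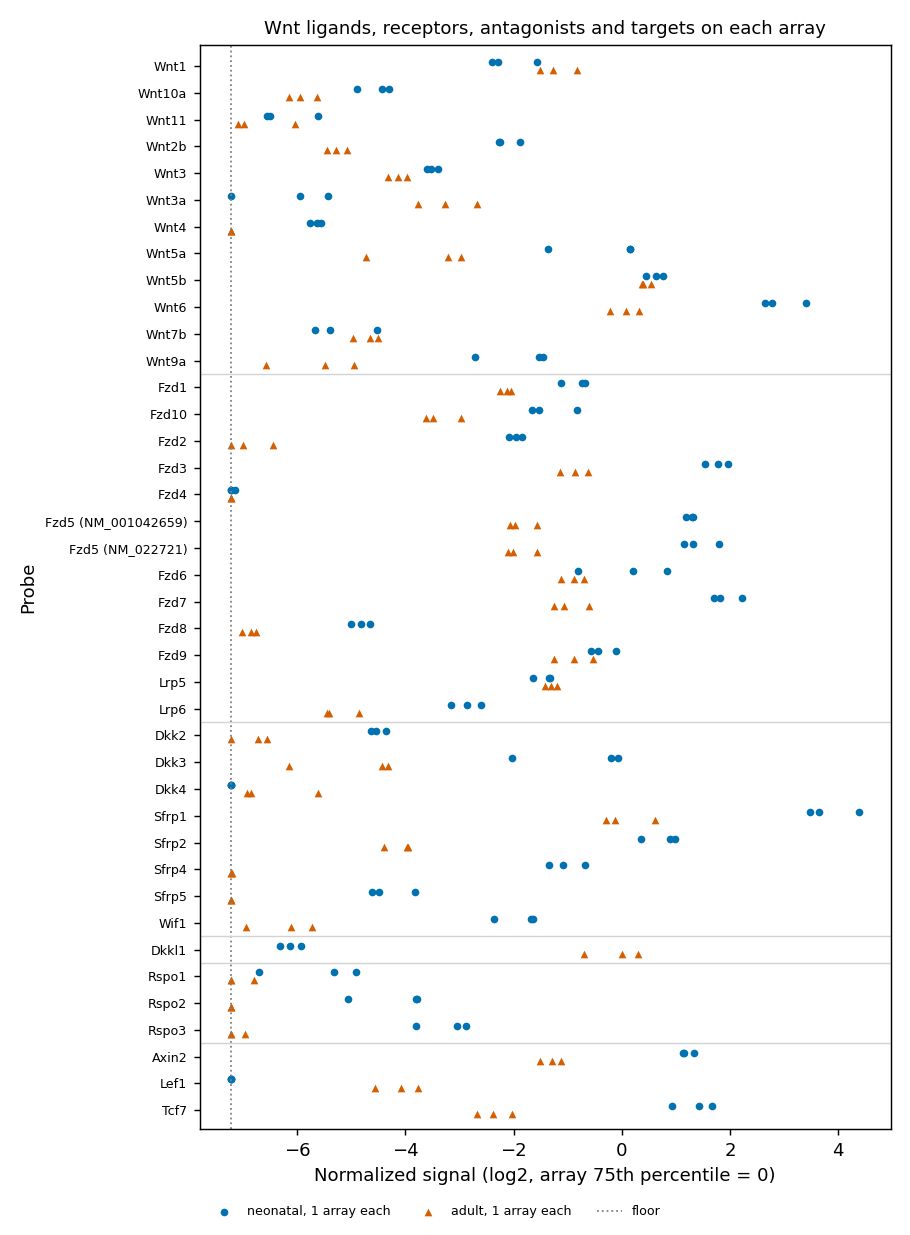
Normalized log2 signal (horizontal axis) of the 40 member probes with signal well above background in any sample, marked spots included. Circles are the 3 neonatal arrays, triangles the 3 adult arrays, the dotted line is the floor at -7.22, and grey lines part ligands, receptors, antagonists, Dkkl1, R-spondins and the nuclear or feedback genes. For Sfrp1 the neonatal arrays lie between 3.48 and 4.39 and the adult arrays between -0.29 and 0.62.

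Among the ligands, Wnt2b, a ligand of the canonical branch, was the only one called lower with marked spots left out. Wnt2b (NM_009520) read -2.26, -2.26 and -1.88 in the neonatal samples, in the order of replicates 1 to 3 that is kept throughout, and -5.46, -5.28 and -5.07 in the adult samples. The difference was -3.14 (SE 0.10, adjusted p = 0.000156 from limma). All neonatal arrays stood above all adult arrays. With the normexp correction the difference shrank to -1.63 and the call was lost. Wnt6, the ligand tied to spermatogonia above, was marked as an outlier on all 6 arrays. Its probe (NM_009526) read 2.65, 3.41 and 2.78 on the neonatal arrays and 0.08, 0.31 and -0.22 on the adult arrays. With these spots kept, the difference was -2.89 (SE 0.16, adjusted p = 0.000180 from limma). The signal was high in each neonatal replicate and lower, though still well above background, in each adult replicate.

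Wnt5a, a ligand best known for signalling that does not pass through beta-catenin, read 0.15, 0.16 and -1.36 on the neonatal arrays, all of them marked, and -3.21, -2.98 and -4.72 on the adult arrays. Its difference with the marked spots kept was -3.29 (SE 0.12, adjusted p = 7.13e-05 from limma). Replicate 3 was the dimmest array of both ages, and the ages did not overlap. Its closest relative by sequence, Wnt5b, did not follow it. Wnt5b read 0.44, 0.75 and 0.64 on the neonatal and 0.38, 0.37 and 0.53 on the adult arrays, a difference of -0.22 (SE 0.16, adjusted p = 0.306 from limma) with neonatal replicate 3 left out as marked. The ranges of the ages overlapped for Wnt5b.

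Wnt9a (NM_139298) had values of -1.46, -1.54 and -2.71 in the neonatal replicates, the first 2 of them marked, and of -4.96, -5.48 and -6.58 in the adult replicates. Adult replicate 1 alone was well above background, so the size of the fall is uncertain. With the marked spots kept, Wnt9a fell by 3.77 on the log2 scale (SE 0.14, adjusted p = 8.03e-05 from limma), a call that the normexp correction undid (-1.34). Wnt10a read -4.31, -4.44 and -4.89 in neonatal and -5.95, -5.63 and -6.16 in adult testis, a difference of -1.37 (SE 0.14, adjusted p = 0.00160 from limma) that passed 2-fold and not 5-fold, and did not pass 2-fold after normexp (-0.29). Wnt4, the ligand known from ovary formation, was dim in neonatal testis at -5.56, -5.63 and -5.77 and not well above background in adult testis, where all 3 arrays were at the floor. Neonatal signal exceeded adult signal at least 2.27-fold (adjusted p = 0.000594 from limma). After normexp no difference was left (-0.07), while Wnt4 was called lower with no floor (-2.77), after quantile normalization (-3.07) and with the deposited values (-2.40). The neonatal arrays lay close together, a little above background.

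Wnt3a was the only ligand called higher in adult testis. The probe of this ligand of the beta-catenin branch (NM_009522) gave -5.96, -7.22 and -5.42 on the neonatal arrays, replicate 2 being at the floor and not well above background, and -3.76, -2.67 and -3.28 on the adult arrays. The difference was 2.96 (SE 0.56, adjusted p = 0.0102 from limma). Each adult array was brighter than each neonatal array, but the standard error was the largest among the members. It was the least secure of the calls, since it lost the call when any replicate was left out with its pair and under 4 further alternatives. The remaining ligands moved by less than 2-fold. Wnt1 was brighter on every adult array by a small amount (difference 0.89, SE 0.13, adjusted p = 0.00446 from limma), and Wnt3 dimmer (-0.64, SE 0.12, adjusted p = 0.00933). Wnt7b had overlapping ranges and a difference of 0.49 (SE 0.22, adjusted p = 0.112). Wnt11 was lower in adult testis within each pair, although the ranges overlapped (-0.48, SE 0.10, adjusted p = 0.0135), and its sign turned after normexp.

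No receptor probe was called higher in adult testis. Of the 8 Frizzled probes tested, 4 were called lower and 0 higher, and with marked spots kept the counts were 5 and 0 of 11. Fzd2 (NM_020510) read -1.95, -1.84 and -2.09 on the neonatal arrays and -6.45, -7.22 and -6.99 on the adult arrays, where replicate 1 alone was well above background. The difference was -4.94 (SE 0.29, adjusted p = 0.00129 from limma). Neonatal replicate 3 was marked for Fzd2, Fzd3, both Fzd5 probes, Sfrp4 and Axin2, so that their differences rest on replicates 1 and 2. Keeping the marked spot of Fzd2 gave -4.93. Because most adult arrays were too dim for this probe, its fall is large but of uncertain size, and the call was lost in the t-test of the methods.

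Fzd3 is a receptor known for planar cell polarity. It read 1.54, 1.78 and 1.96 in neonatal testis and -1.15, -0.87 and -0.62 in adult testis, a difference of -2.67 (SE 0.14, adjusted p = 0.00102 from limma). The probes of Fzd5 gave like values. The probe NM_022721 gave 1.32, 1.15 and 1.81 and then -2.02, -2.10 and -1.57, a difference of -3.30 (SE 0.14, adjusted p = 0.000703 from limma). The probe NM_001042659 gave 1.18, 1.30 and 1.32 and then -1.97, -2.06 and -1.57, a difference of -3.26 (SE 0.15, adjusted p = 0.000820). Neonatal testis was the brighter age on every array of both probes.

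Fzd7, a receptor often found on stem and progenitor cells, read 1.81, 1.71 and 2.22 in neonatal testis, with all 3 spots marked, and -1.07, -0.61 and -1.25 in adult testis. With the spots kept it fell by 2.89 (SE 0.25, adjusted p = 0.000658 from limma). Fzd10 passed 2-fold and not 5-fold, with -1.54, -1.65 and -0.83 in neonatal and -3.49, -3.62 and -2.98 in adult testis (difference -2.02, SE 0.11, adjusted p = 0.000332). Fzd8 was measured in neonatal testis alone, at -4.82, -5.01 and -4.65, and was at least 3.86-fold higher there (adjusted p = 0.000446 from limma). Both showed no overlap between the ages.

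Fzd1 and Fzd6 moved by less than 5-fold. Fzd1 read -0.67, -0.74 and -1.13 on the neonatal arrays, all marked, and -2.04, -2.12 and -2.25 on the adult arrays, a difference of -1.29 with the spots kept (SE 0.12, adjusted p = 0.000883 from limma). Fzd6, marked on all 6 arrays, read 0.20, 0.84 and -0.82 and then -0.88, -0.69 and -1.12, and neonatal replicate 3 lay within the adult range. Its difference with the spots kept was -0.97 (SE 0.27, adjusted p = 0.0284), which is under 2-fold. Fzd9 was lower in adult testis within each pair, by less than 2-fold and with overlapping ranges (-0.52, SE 0.11, adjusted p = 0.0157), and Fzd4 was well above background on 1 neonatal array and at the floor on the adult arrays.

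The co-receptors parted. Lrp6 (NM_008514) read -2.86, -3.15 and -2.61 in neonatal testis and -5.46, -5.40 and -4.86 in adult testis, a difference of -2.37 (SE 0.13, adjusted p = 0.000332 from limma). This is just past 5-fold, and the call was lost under 5 alternatives, among them normexp (-1.20) and leaving out replicate 1 (-2.26). Lrp5 (NM_008513) read -1.35, -1.63 and -1.32, all marked, and then -1.20, -1.31 and -1.42, of which 1 was marked. With the spots kept its difference was 0.13 (SE 0.14, adjusted p = 0.432). Lrp6 was lower on every adult array, while the Lrp5 arrays of the ages lay among each other. The difference between the co-receptors was not tested.

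With marked spots kept, 7 of the 8 secreted antagonists tested in the member set were called lower in adult testis. With marked spots left out, 4 of 5 were. Over all mRNA probes of these fits, 15.2% and 13.6% were called lower. All 3 Sfrp probes tested were called lower in adult testis, and with marked spots kept all 4 were, Sfrp2 included. Sfrp1 (NM_013834) read 3.64, 3.48 and 4.39 on the neonatal arrays and -0.13, -0.29 and 0.62 on the adult arrays. Its difference of -3.77 had an SE of 0.10 (adjusted p = 0.000131 from limma). No spot was marked or too dim, and replicate 3 was the brightest array of both ages.

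Sfrp4 had the widest bound in the set. Its neonatal values of -1.34, -1.08 and -0.68 stood against adult values that were all at the floor or next to it and not well above background. The fall was at least 49.3-fold (adjusted p = 0.000295 from limma, 2 neonatal arrays), and at least 55.7-fold with the marked spot kept. After normexp the difference was -3.56, still called but below that bound. Sfrp2 read 0.99, 0.89 and 0.35 on the neonatal arrays, all marked, and -3.95, -3.98 and -4.40 on the adult arrays, a difference of -4.85 with the spots kept (SE 0.11, adjusted p = 2.45e-05). Sfrp5 read -4.50, -4.61 and -3.83 in neonatal testis, had all adult arrays at the floor, and thus fell at least 5.75-fold (adjusted p = 0.000597), but after normexp it differed by only -0.28 and was not called. In each of these genes every neonatal array lay above every adult array.

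Wif1, which binds Wnt ligands directly, fell as the Sfrp members of the set did. Its probe (NM_011915) read -1.65, -1.68 and -2.37 on the neonatal arrays, all marked, and -5.73, -6.12 and -6.95 on the adult arrays, of which replicate 3 was not well above background. With the spots kept it fell by 4.37 (SE 0.15, adjusted p = 6.21e-05 from limma). The Dkk family was mixed. Dkk3 (NM_015814), an outlying member of the family in sequence and function, read -0.06, -0.20 and -2.04 in neonatal testis, all marked, and -4.33, -4.44 and -6.16 in adult testis, a difference of -4.21 with the spots kept (SE 0.11, adjusted p = 3.32e-05). Replicate 3 was the dimmest in both ages, by about as much in one as in the other.

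Dkk2 read -4.36, -4.55 and -4.63 in neonatal testis and -6.55, -6.73 and -7.22 in adult testis, where replicate 1 alone was well above background. The difference was -2.32 (SE 0.14, adjusted p = 0.000416 from limma), which lies at the 5-fold line and is of uncertain size. The call was lost under 4 alternatives, among them normexp (-0.53) and leaving out replicate 3 (-2.19). Dkk4 was well above background on 1 adult array alone and was not called (adjusted p = 0.0950 from limma), and the size of its change could not be measured. Dkk1 gave no signal above background at either age.

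Dkkl1 ran against the families it is grouped with. This relative of the Dkk proteins is known from the acrosome of spermatids and sperm. Its probe (NM_015789) read -6.32, -5.92 and -6.13 on the neonatal arrays and 0.00, -0.71 and 0.30 on the adult arrays. The difference of 5.99 (SE 0.29, adjusted p = 0.000277 from limma) was the largest rise in the set. All arrays were well above background and none was marked.

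The R-spondins of the member set, Rspo1 to Rspo3, were all measured in neonatal testis and not well above background on any adult array. Rspo3 (NM_028351) read -2.89, -3.80 and -3.04 on the neonatal arrays and was at least 12.1-fold higher there (adjusted p = 0.000347 from limma). Rspo2 read -3.79, -3.80 and -5.07 and was at least 6.13-fold higher (adjusted p = 0.00177). Rspo1, the R-spondin of ovary formation, read -5.31, -4.92 and -6.70, with replicate 3 not well above background, and was lower in adult testis by an amount that could not be measured (adjusted p = 0.0262). After the normexp correction Rspo2 and Rspo3 differed by -0.98 and -0.97 and lost their calls, and the sign of Rspo1 turned (0.19). The bounds of Rspo2 and Rspo3 therefore fail under normexp.

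Axin2, a feedback inhibitor that is itself switched on by beta-catenin, fell. The probe (NM_015732) read 1.12, 1.14 and 1.34 in neonatal testis and -1.30, -1.51 and -1.12 in adult testis, a difference of -2.54 (SE 0.15, adjusted p = 0.00137 from limma) and of -2.51 with the marked neonatal spot kept. It was not called in the t-test of the methods after adjustment. Tcf7 and Lef1 code for related DNA-binding partners of beta-catenin, and they moved in opposite directions. Tcf7 (NM_009331) read 1.66, 1.43 and 0.92 on the neonatal arrays, all marked, and -2.04, -2.38 and -2.68 on the adult arrays, a difference of -3.71 with the spots kept (SE 0.12, adjusted p = 4.92e-05). Lef1 (NM_010703) was at the floor on all neonatal arrays and read -4.09, -4.56 and -3.77 on the adult arrays. Its rise was at least 7.94-fold (adjusted p = 0.000465 from limma), while after normexp the difference was 1.52, which is below that bound and was not called. So Tcf7 was brighter on every neonatal array, and Lef1 was seen on adult arrays alone.

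The normexp correction, which adds an offset to every signal, left some members where they were and shrank others. Members that hardly moved were Sfrp1 (-3.86), Fzd3 (-2.67), Axin2 (-2.45), and, with marked spots kept, Fzd7 (-2.79) and Tcf7 (-3.40). Among members that kept their call with a smaller difference, Dkkl1 came to 4.34 and Fzd2 to -2.90. With marked spots kept, Wif1 came to -2.42, Dkk3 to -2.89, Sfrp2 to -3.86 and Wnt5a to -2.58. Fzd8, not called in either case, came to -0.27. The direction of these members held, and the size of their change depended on the correction.

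**Figure D2:**
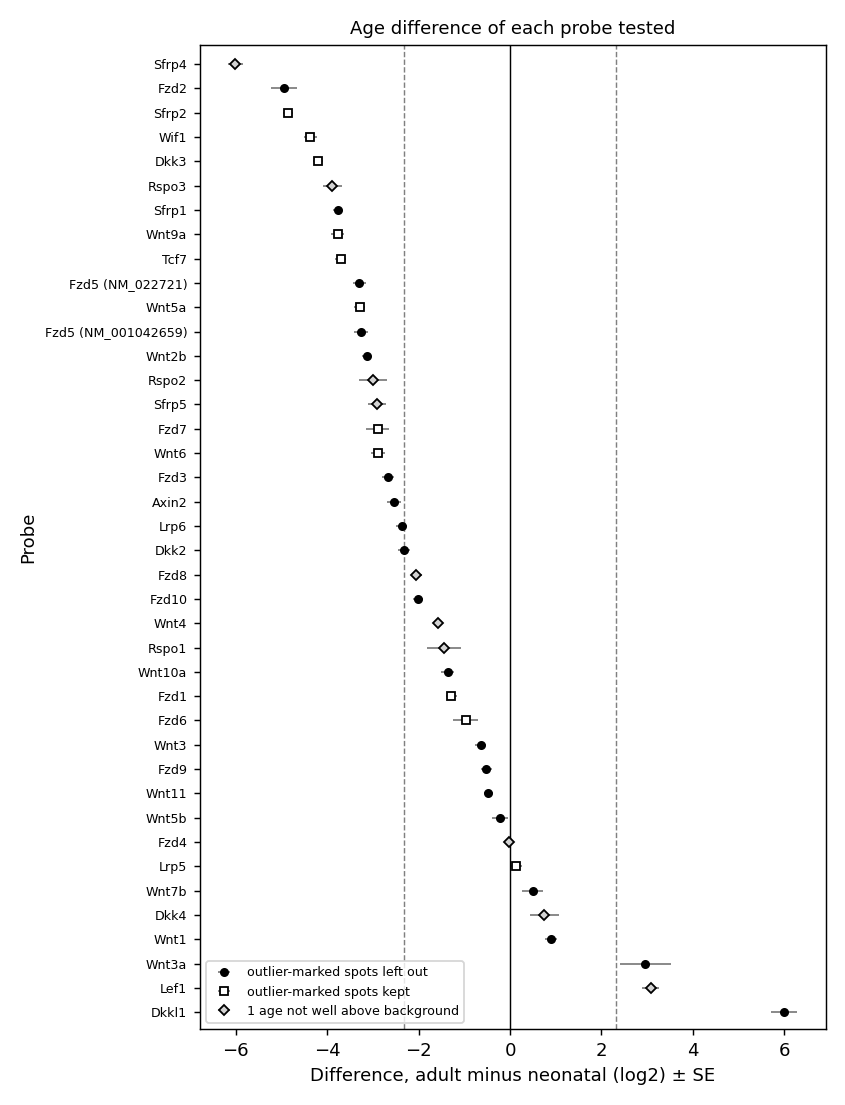
Difference between adult and neonatal testis (log2, horizontal axis) with its SE for each member tested, in order of size. Filled circles leave marked spots out, open squares keep them for members that could not be tested otherwise, and grey diamonds are probes not well above background at 1 age, whose plotted difference rests on values too dim to be measured. Dashed lines stand at 5-fold, and Dkkl1 lies at 5.99 and Sfrp1 at -3.77.

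Both ages appear on each slide, as far as slides can be inferred. By shared scan and extraction times, replicates 1 and 2 of both ages were taken as one slide and replicate 3 of both as another. With marked spots kept, the sign was the same within both inferred slides for 38 of the 40 members tested, a share that was not compared with other probes. Sfrp1 differed by -3.77 within the first slide and by -3.77 within the other, and Dkkl1 by 5.77 and 6.43. With the slide as the block in place of the replicate number, 13 members were called lower and 3 higher.

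The rest of the pathway was followed in a list of 68 other genes that make, carry, receive or pass on the signal, with 93 probes. Of 74 probes tested, 20 were called lower in adult testis and 3 higher, or 27.0% and 4.05%, beside 13.6% and 12.6% of all mRNA probes tested. Probes of a gene were counted apart, and Prickle2, Ryk, Tcf7l1 and Tcf7l2 each had more than 1 probe called lower, so fewer genes than probes were called. The median difference was -1.19, beside -0.39 over all of these. After the normexp correction 8 probes of the list were called lower and 3 higher, beside 1036 and 1502 of 15119 mRNA probes. Without replicate 1 or 2 fewer probes were tested, and 7 or 6 of the list were called lower and 0 higher. Sp5, a transcription factor gene and direct target of beta-catenin, had the largest fall of the list with marked spots left out (difference -4.76, SE 0.15, adjusted p = 0.000415 from limma). Gpc3, a surface proteoglycan gene testable only with its marked spots kept, was at the floor in adult testis and fell at least 38.5-fold (adjusted p = 0.000520). Also testable only in that way were Ccnd1, a cell cycle gene (-4.62, SE 0.15, adjusted p = 5.43e-05), and Myc, a growth regulator (-3.75, SE 0.11, adjusted p = 4.24e-05), both known as targets of beta-catenin. Wls, the carrier that brings Wnt ligands to the cell surface, was not well above background on the adult arrays and so fell at least 13.1-fold (adjusted p = 0.000597). Lgr5, a receptor for R-spondins, was at the floor in adult testis and fell at least 10.8-fold (adjusted p = 0.000208).

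Among the other large falls of the list, the planar polarity gene Prickle2 had 4 probes called lower, the widest difference being -3.45 (NM_001134460, SE 0.16, adjusted p = 0.000833 from limma). Csnk1e, a kinase that acts on Dishevelled, fell by 3.38 (SE 0.11, adjusted p = 0.000154), and Pygo1, a nuclear partner of beta-catenin, differed by -3.28 (SE 0.17, adjusted p = 0.00107). The R-spondin left out of the member rule, Rspo4, fell by 3.22 (SE 0.23, adjusted p = 0.000713), and it was well above background on all 6 arrays, unlike Rspo1 to Rspo3. The 3 genes called higher were Lgr6, a further R-spondin receptor (3.58, SE 0.16, adjusted p = 0.000756 from limma), Sost, a secreted blocker of the Lrp co-receptors (3.38, SE 0.18, adjusted p = 0.00109), and Dact2, an inhibitor that binds Dishevelled (2.33, SE 0.14, adjusted p = 0.00135). Ctnnb1, which codes for beta-catenin itself, differed by -1.33 (SE 0.14, adjusted p = 0.00473), short of 5-fold. With Lgr5 lower and Lgr6 higher in adult testis, the R-spondin receptors did not move as one, and Lgr4, called lower, differed by -2.40 (SE 0.14, adjusted p = 0.00124).

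Some lncRNAs lie in or beside member genes by the authors' annotation, which covers lncRNAs chosen on these same samples, so their values are given as a description without a test. At Lef1, the exonic antisense lncRNA AK029296 was not well above background on the neonatal arrays and read -2.61, -2.49 and -3.64 on the adult arrays. AK020111, intronic and in sense to Lef1, read -5.33, -5.47 and -4.85 in neonatal and -2.57, -2.17 and -1.90 in adult testis. Both were thus brighter in adult testis, as the Lef1 mRNA probe was.

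At Tcf7, the intronic sense lncRNA AK038091 read -2.28, -2.25 and -3.21 on the neonatal arrays and -4.53, -5.23 and -4.38 on the adult arrays, lower in adult testis like Tcf7. AK034561, exonic and in sense to Fzd8, read -3.30, -3.29 and -2.81 and then -5.34, -5.24 and -5.44. In contrast, AK015090 in antisense within an intron of Wnt3 was at the floor in neonatal testis and read 0.40, 0.05 and -1.28 in adult testis, while Wnt3 itself moved by less than 2-fold. The exonic antisense lncRNA uc007xdh of Wnt7b read -5.60, -6.33 and -3.91 on the neonatal arrays and was not well above background on the adult arrays.

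For the intergenic lncRNAs beside member genes, the direction was not compared with that of intergenic lncRNAs elsewhere. AK006618, beside Wnt4, went from -7.22, -6.90 and -6.99 to 4.03, 4.02 and 4.65, although the Wnt4 probe was dim in neonatal and below background in adult testis. AK132559, also beside Wnt4, was at the floor in neonatal testis and read -4.29, -4.17 and -3.69 in adult testis. AK015554 beside Wnt7a read 0.90, 0.94 and 1.21 in adult testis, and AK006729 beside Dkk1 read 1.26, 1.14 and 1.46, while neither gene gave a signal above background. Beside genes that fell, uc007uiz at Fzd3 read -4.07, -4.33 and -3.17 and then 2.48, 2.55 and 2.91, and AK015128 at Sfrp1 went from the floor to -1.91, -1.95 and -3.35. Adult testis was also the brighter age for uc008ppk beside Sfrp2, AK015296 beside Wif1 and uc008rjv beside Dkk2, with adult means of -1.56, -2.50 and -1.95.

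Whole testis changes its cell make-up between these ages, and in bulk RNA fewer cells of a type and less RNA per cell cannot be told apart. Marker lists were therefore read on the same arrays, with marked spots kept. Markers of spermatids, cells that first appear at puberty, summed to 0.678, 0.714 and 0.796 on the neonatal arrays and 1138, 1312 and 1550 on the adult arrays, on a scale where the 75th percentile of an array is 1. All 8 spermatid probes were called higher in adult testis, with Tnp1 the brightest in neonatal and Prm2 in adult testis, and 1 Akap4 probe was not above background in neonatal testis. Spermatocyte markers summed to 21.1, 18.5 and 28.2 on the neonatal arrays and 195, 206 and 248 on the adult arrays, with 4 of 7 called higher and Ldhc the brightest in neonatal and Pgk2 in adult testis. Ldhc passed 2-fold and not 5-fold (1.69), Sycp1 did not reach 2-fold (0.85), and Sycp3 hardly differed (0.10, adjusted p = 0.940 from limma). These markers were already bright in neonatal testis, with means of 3.09 for Ldhc, 2.90 for Sycp1 and 2.07 for Sycp3. Dkkl1 rose with these lists, and their part in that rise was not tested.

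Sertoli cell markers summed to 93.9, 95.0 and 65.9 on the neonatal arrays and 20.3, 15.6 and 12.9 on the adult arrays, and 7 of 10 probes were called lower, with Wt1 the brightest at both ages. Interstitial stroma summed to 132, 129.7 and 179 on the neonatal arrays and 19.6, 26.3 and 27.1 on the adult arrays, with 6 of 9 called lower and Dcn the brightest at both ages. Peritubular myoid markers summed to 21.8, 22.0 and 26.9 on the neonatal arrays and 5.47, 4.56 and 6.74 on the adult arrays, with 0 of 5 called, Myh11 the brightest at both ages and Cnn1 not above background at either age, while Actg2 rose past 2-fold. Undifferentiated spermatogonia summed to 11.1, 11.3 and 13.3 on the neonatal arrays and 3.55, 3.38 and 4.21 on the adult arrays, with 4 of 6 called lower, Id4 called higher and Lin28a the brightest at both ages, while Gfra1 was below background at both ages and Nanos2 in adult testis. The sums of these lists were lower in adult testis, and their part in the falls of Wnt members was not tested.

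Endothelial markers summed to 8.34, 9.51 and 15.2 on the neonatal arrays and 2.30, 1.93 and 3.33 on the adult arrays, with 3 of 7 called lower and Cdh5 the brightest at both ages. Surface mesothelium, a list that shares Wt1 with the Sertoli list, summed to 25.1, 25.1 and 19.5 on the neonatal arrays and 7.71, 7.15 and 6.98 on the adult arrays, with 2 of 3 called lower, Wt1 the brightest at both ages and Upk3b not above background in adult testis. Blood summed to 15.5, 21.0 and 17.9 on the neonatal arrays and 5.79, 8.12 and 6.81 on the adult arrays, with 2 of 4 called lower and Hbb-b2 the brightest at both ages. The blood list went both ways, since the globin probes fell while both Alas2 probes rose past 2-fold (2.04 and 2.02, adjusted p = 0.00173 and 0.000580 from limma).

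The remaining lists were mixed. Leydig cell markers summed to 31.9, 34.9 and 30.1 on the neonatal arrays and 82.9, 69.4 and 64.1 on the adult arrays, with 2 of 8 called higher, none lower and Hsd3b1 the brightest in neonatal and Insl3 in adult testis. This list also went both ways, for at 2-fold 4 of its probes were higher and 2 lower, the latter of Hsd3b1 and Hsd17b3. Macrophage markers summed to 8.52, 8.61 and 9.37 on the neonatal arrays and 7.02, 7.29 and 8.80 on the adult arrays, with 0 of 5 called and C1qa the brightest in neonatal and Mrc1 in adult testis. Markers of epididymis and rete testis summed to 6.24, 0.895 and 7.22 on the neonatal arrays. On the adult arrays the sums were 0.381, 0.547 and 0.951, and 0 of 5 probes were called. Crisp1 was the brightest in neonatal and Pax8 in adult testis. Rnase10 and 1 Lcn5 probe were not above background in neonatal testis, nor was any Lcn5 probe in adult testis. In that list Crisp1 read 2.43, -4.35 and 2.50 on the neonatal arrays, so that neonatal replicate 2 stood apart from the others. Among Wnt members, neonatal replicate 2 lay outside the other neonatal arrays by smaller amounts for some, such as Wnt3a and Rspo3 (lower) and Wnt6 (higher). For others neonatal replicate 3 was the array apart, such as Dkk3, Wnt5a and Wnt9a, as their values above show. These members were picked as examples, so they do not mark out replicate 2. The cause was not tested.

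**Figure D3:**
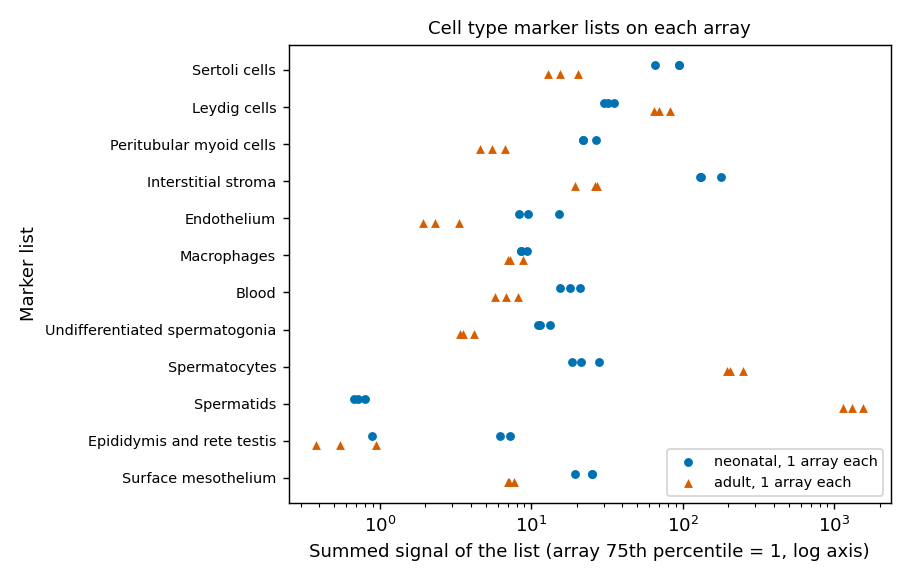
Summed signal of each marker list on each array (horizontal log axis, 75th percentile of the array = 1), circles for the 3 neonatal and triangles for the 3 adult arrays. The spermatid list lies between 0.678 and 0.796 on the neonatal arrays and between 1138 and 1550 on the adult arrays.

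Since many members fell together, their promoters were searched for the core sequence recognised by TCF and LEF proteins. RefSeq promoter sequences (GRCm38.p6) were used for 31 of the 47 member genes, in windows of 250 bases before each start site. The motif CTTTGAT was searched on both strands. It was found in 2 of 38 member windows (5.26%) and in 1053 of 32851 windows of all genes (3.21%). The windows of Axin2, Lef1 and Dkkl1 did not hold it. A match of this kind describes the sequence and was not tested for function. The windows that do are shown 5′ to 3′ with the motif or its reverse complement in capitals, and both belong to ligands whose signal moved by less than 2-fold between the ages. That of Wnt11 is chr7:98834862-98835111 on the plus strand and that of Wnt5b is chr6:119449387-119449636 on the minus strand.
Wnt11: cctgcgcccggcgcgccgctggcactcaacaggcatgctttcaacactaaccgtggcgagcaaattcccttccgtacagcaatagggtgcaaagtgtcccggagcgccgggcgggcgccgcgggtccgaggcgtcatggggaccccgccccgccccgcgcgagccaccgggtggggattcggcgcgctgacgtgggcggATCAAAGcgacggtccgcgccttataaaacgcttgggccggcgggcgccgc
Wnt5b: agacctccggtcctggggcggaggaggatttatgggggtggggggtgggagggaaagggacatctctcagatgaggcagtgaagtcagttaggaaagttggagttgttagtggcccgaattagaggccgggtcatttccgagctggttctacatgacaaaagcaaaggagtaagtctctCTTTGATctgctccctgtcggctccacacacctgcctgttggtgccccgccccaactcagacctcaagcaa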

How the data were processed

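Single-colour arrays of 6 testis RNA samples were analysed, 3 per age. The scanner intensities that the authors deposited were made with Agilent Feature Extraction 10.5.1.1, which subtracted the background and detrended each array. The authors also deposited log2 values, which equal the log2 of that signal floored at 5 minus a constant of the array, although their methods name quantile normalization. The intensities were scaled, floored and put on the log2 scale as the report says. Control spots were not used, and saturation was not met on any array. The lowest signal well above background was between 6.09 and 24.0. Dim probes could not be measured under that, and precision is limited by the number of arrays.

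Between 6.11% and 30.7% of the spots of an array were marked as outliers, most on replicate 3. Keeping them was a listed alternative, and the further fits with them kept were chosen after seeing the data. Probes with some array well above background were fitted with limma 3.58.1 in R 4.3.3, with Python 3.11.15, numpy 2.4.6 and pandas 2.3.3 for the tables. RefSeq accessions of 21905 of 22464 mRNA probes (97.5%) matched a symbol in a table on GRCm38.p6. The fit was tested on simulated data.

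The replicate number served as block since a paired test is what the authors describe. Deviations from the mean of the age correlated at 0.530, 0.484 and 0.816 between arrays of the same number. They correlated at 0.522 and 0.590 between arrays of different number on the same slide, and at -0.746 to -0.605 across slides. On the slide of replicates 1 and 2, arrays of the same number were thus no closer than arrays of different number. Replicate 3 was alone on its slide, so there pairing and slide cannot be told apart. The deviations sum to 0 within an age, so negative values across slides are partly built in. The slide was inferred from shared scan and extraction times.

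The members and lists were chosen with earlier results of these data known. Values by array are given for members past 2-fold with an adjusted p of at most 0.05 and for members left untested by outlier marks. Where no array of an age was well above background, that age can be described without its values. The pathway list is described by its counts and the largest calls in each direction, with the largest of those testable only with outlier spots kept. Alternatives were no floor, quantile normalization, normexp background correction with an offset of 50, the deposited log2 values, outlier spots kept, a stricter and no filter on dim probes, the slide or nothing as block, a 2-fold threshold, the methods' t-test, and leaving out each replicate or array. The normexp correction used median spot signals. With replicate number as block, the p-values measure the spread of the age difference across these pairs, moderated by limma over probes. Shifts that a replicate shared between both ages do not enter that spread. For Sfrp1 the SD within each age was 0.48, beside an SE of 0.10 for the difference.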

Additional observations from a re-analysis of the deposited data

How the results depend on the processing

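The counts of members changed with the background correction, with the deposited values in place of the scaled ones, with outlier spots kept and with replicates left out. After the normexp background correction, 7 members were called lower and 1 higher, against 13 and 3 as reported, and with outlier spots kept 14 were lower and 1 higher, against 21 and 3. The calls of Wnt2b, Wnt3a, Wnt9a, Lrp6, Sfrp5, Dkk2, Rspo2, Rspo3 and Lef1 were those lost to normexp. The median difference of the members went from -2.02 to -0.32. The correction also moved the median over mRNA probes by 0.42 to 0.02, with 1036 mRNA probes called lower. The share of calls that were higher was 59.2% of mRNA calls with it, against 48.1% as reported and 37.0% on the deposited log2 values. Quantile normalization moved that median by -0.35 and the deposited values by -0.44. On the deposited values 22 of 38 members tested were called lower, and with outlier spots kept 21 of 40. More members were tested in both, but the deposited values also took members already tested, such as Wnt4, past the threshold. All mRNA probes called lower were 3873 on the deposited values.

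The sign turned for 3 members, in 4 pairs of member and setting. After the normexp correction Rspo1 differed by 0.19, Wnt11 by 0.41 and Fzd4 by 0.54, and on the deposited values Fzd4 differed by 0.32. The cause was not tested. Over 615 pairs of member and setting, 578 kept direction and side of the threshold, 25 lost the call and 8 gained it. The gains were of Wnt4, Fzd8, Rspo1 and Dkk4, after quantile normalization for each of them, with no floor for Wnt4 and Dkk4, and on the deposited values for Wnt4 and Fzd8.

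The fit with no replicate block called 13 members lower and 3 higher, the same counts as with the block, and 19 and 2 probes of the pathway list. With a replicate or array left out, the members called lower ranged from 6 to 12 and those called higher from 2 to 3. The low counts came without neonatal replicate 1 or 2, where fewer members were tested. With outlier spots kept, in fits added after seeing the data, the ranges were 20 to 21 and 2 to 3. The pathway list ranged from 6 to 20 lower and 0 to 3 higher, and all mRNA probes from 914 to 2137 lower and 849 to 1928 higher.

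For the pathway list, the counts lower were 8 after normexp, 38 on the deposited values, 30 with outlier spots kept, 10 by the methods' t-test after Benjamini-Hochberg adjustment and 44 at 2-fold. Those higher were 1 by the methods' t-test after adjustment and 8 at 2-fold. At 2-fold, 3541 mRNA probes were higher and 5485 lower, and after the adjusted methods' t-test 1255 were lower.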
